A study of Mus musculus with 14 samples.

Results

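The cytosolic ribosomal proteins are the protein parts of the ribosome that translates the nuclear mRNAs of a cell. They were taken here as the genes whose symbol is Rpl, Rps or Rplp and a number, with Rpsa, and without the S6 kinase genes (Rps6k) and pseudogene names. On the array used, 49 such genes of 18193 had a probe set that named them alone: 24 of the large subunit, 2 of the stalk (Rplp0 and Rplp2) and 23 of the small subunit. A gene with several probe sets, as 24 of the 49 had, was represented by the probe set with the highest mean. Of 85 protein-coding mouse genes that match the rule in the RefSeq table, 48 were measured, and 8 had no probe set of their symbol. A further 29 symbols, among them the stalk protein Rplp1 and the paralog Rpl36al, appeared only in probe sets shared with other genes, often pseudogenes, and were not counted as members.

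Ribosomal proteins assemble with ribosomal RNA in fixed proportions, and their mRNAs are among the most heavily translated of growing cells. Most of these mRNAs start with a C followed by a run of pyrimidines, the terminal oligopyrimidine (TOP) tract, through which the kinase complex mTORC1 and the protein Larp1 set their translation as a group. In this series the proteins are also the tool, because RiboTag mice carry an epitope on Rpl22, a protein of the large subunit, in a chosen cell type, so that tagged ribosomes can be pulled out with the mRNA bound to them.

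The libraries were 14 arrays of ribosome-bound mRNA from ventral midbrain, taken at 3 weeks and at 10 weeks of age, which the submitters call early and late neurodegeneration. Tfr1ΔDN (Tfr1-null) mice lacked transferrin receptor 1, the importer of transferrin-bound iron encoded by Tfrc, in dopaminergic neurons. Control (CTR) mice were heterozygous for the Tfr1 allele, and both genotypes carried RiboTag and were an F2 of 129Sv and C57BL/6. At 3 weeks 3 libraries were control and 4 were Tfr1-null, and at 10 weeks 4 were control and 3 were Tfr1-null. The driver of the deletion is not named in the labels, no library of the input lysate was used here, and the labels do not say that replicates were separate animals, so p values measure the spread between these libraries, which may be technical.

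The deposited values were log2 signals, with array medians of 6.41 to 6.47 at 3 weeks and 7.36 to 7.43 at 10 weeks. Ages are therefore not compared in level below, and the number of arrays limits the precision. In 2 libraries the signal of Tfrc went against the label. The 5′ control probe set of Tfrc lay between 9.50 and 9.59 in the 3-week controls and between 6.88 and 7.73 in Tfr1-null 3 weeks 2 to 4, but at 9.67 in the library labelled Tfr1-null 3 weeks 1, whose source name says control. At 10 weeks the middle probe set lay between 11.39 and 11.69 in Tfr1-null and between 9.17 and 9.86 in controls 2 to 4, but at 11.43 in the library labelled control 10 weeks 1. The counts and the differences that matter are therefore given from all 14 libraries under their labels and from 12, without these 2. No library was moved to another group.

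The sequences around the annotated starts show the tract by which these mRNAs are known as a family. Each window runs from 15 bases before the annotated start to 15 bases from it, 5′ to 3′ on the strand of the gene, from RefSeq on GRCm38.p6, and capitals mark the tract: a C followed by at least 4 pyrimidines, with the rest of its run, that begins within 5 bases of the annotated start. Runs of that kind further from the start stand in lower case. The first 8 are the members whose annotated start lies exactly at such a C. The last 2 are the tagged protein and its paralog, shown because the text returns to them.
Rpl14: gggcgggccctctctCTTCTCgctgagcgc
Rpl35: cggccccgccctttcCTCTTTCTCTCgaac
Rpl38: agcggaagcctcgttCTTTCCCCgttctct
Rplp2: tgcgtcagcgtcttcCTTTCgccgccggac
Rps10: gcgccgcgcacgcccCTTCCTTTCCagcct
Rps18: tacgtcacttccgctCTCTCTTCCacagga
Rps27: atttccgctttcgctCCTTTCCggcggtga
Rps6: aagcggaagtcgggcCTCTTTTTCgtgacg
Rpl22: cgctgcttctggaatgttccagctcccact
Rpl22l1: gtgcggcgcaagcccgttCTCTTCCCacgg

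These windows lie at chr9:120571502-120571531 on the plus strand (Rpl14), chr2:39005117-39005146 on the minus strand (Rpl35), chr11:114668565-114668594 on the plus strand (Rpl38), chr7:141447636-141447665 on the plus strand (Rplp2) and chr17:27635230-27635259 on the minus strand (Rps10). The others lie at chr17:33955651-33955680 (Rps18), chr3:90213634-90213663 (Rps27) and chr4:86857353-86857382 (Rps6) on the minus strand, and at chr4:152324421-152324450 (Rpl22) and chr3:28805493-28805522 (Rpl22l1) on the plus strand. The tract was searched on the strand of the gene only. It stood at the annotated start in 8 of the 43 members with a window (18.6%), beside 3.0% of all 27025 genes in the promoter table and 0 of 67 mitochondrial ribosomal proteins. When it could begin up to 5 bases to either side, 20 of 43 members (46.5%) and 21.2% of all genes held it. Rpl22 has a further annotated start, and at neither of them did a tract begin within 5 bases. An annotated start can lie some bases away from the start used in these neurons, so no match shows only that no such run begins within 5 bases of the annotated one.

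Most members gave very bright signals. In every library 29 of the 49 lay above the 95th percentile of all genes, with a highest member value of 13.82 at 3 weeks and 15.01 at 10 weeks, beside array maxima of 14.11 to 14.21 and 15.07 to 15.18. Such a position ranks probe signals and is no measure of transcript number, and whether signals so near the top of an array still follow a difference in full was not tested. A further 16 members were neither that bright nor ever dim. Rpl12, Rpl37, Rpl39l and Rps16 lay under the 25th percentile of their array in at least 1 library: Rpl12 and Rpl39l in 4 of 14, Rpl37 in 5 and Rps16 in all 14. For Rpl12, Rpl37 and Rps16 this describes the probe set that named them alone, not the gene. Brighter probe sets, shared with other genes, read 12.18 to 12.40 for Rpl12, 13.14 to 13.40 for Rpl37 and 12.42 to 12.76 for Rps16 at 3 weeks. Some of the 16 were likewise read by their weaker probe sets. At 3 weeks Rps6 read 6.66 to 7.87 and Rps27 7.11 to 7.28, where shared probe sets read 13.36 to 13.49 and 13.22 to 13.5. Rpl39 read 6.55 to 6.78 and Rpl14 8.07 to 8.79, where shared probe sets read 12.95 to 13.23 and 13.03 to 13.13.

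The members also varied little between libraries of a group. In the 12 libraries the median within-group SD of a member was 0.0486 log2 units in 3-week controls and 0.0496 in 3-week Tfr1-null, beside 0.104 and 0.111 over all genes. At 10 weeks it was 0.0991 in controls and 0.0925 in Tfr1-null, beside 0.194 and 0.181. Other genes of like brightness were not compared, so whether the small spread is particular to the members was not tested. Rps25, of the small subunit, had the widest spread, with values from 5.14 to 8.06 in Tfr1-null at 3 weeks and a standard error of 0.72 for its differences. A brighter probe set, shared by Rps25 with other genes, read 12.61 to 12.75 in the same libraries, so the spread belongs to the dimmer probe set.

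Early in neurodegeneration, at 3 weeks, the question is how Tfr1-null ribosome-bound mRNA differs from control. No ribosomal protein gene passed the test, and the bright members were all slightly higher in Tfr1-null in the 12 libraries. Limma called 0 of 49 members at an adjusted p under 0.05 with 12 libraries, where it called 1.84% of all genes, and 0 with 14 libraries, where it called 0% of all genes. At an unadjusted p under 0.05 there were 4 members higher (Rpl22, Rpl7l1, Rpl27a and Rps18) and 2 lower (Rps4l and Rpl3l) with 12 libraries, beside 5.27% of all genes higher and 5.36% lower. With 14 libraries it was 1 higher (Rpl7l1), beside 2.1% of all genes, and 0 lower, beside 2.57%. With so few members past that limit, these counts lie near the share of all genes.

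The size of the 3-week shift was small. The median difference of the 49 members, Tfr1-null minus control, was 0.07 log2 units with 12 libraries and 0.04 with 14, beside 0.01 over all genes in both. With 12 libraries 42 of 49 members lay above 0, where 53.6% of all genes did, and with 14 libraries 39 did, beside 53.8%. All 29 bright members lay above 0 with 12 libraries, by 0.01 to 0.21, and 27 of them with 14. In 19 members every Tfr1-null library lay above every control in the 12 libraries, beside 13.3% of all genes, and in 3 (Rpl12, Rpl3l and Rps4l) below, beside 11.6%. With all 14 libraries 6 members (Rpl13a, Rpl27a, Rpl7l1, Rps18, Rps24 and Rps29) lay above in this way, beside 3.64%, and 0 below, beside 4.52%. Without Tfr1-null 3 weeks 3, the library with the highest members, the median with 12 libraries was 0.043. The members were measured on the same arrays, so these counts are no independent trials, and no test was made over the list.

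Seen by library, the shift separated the groups at 3 weeks once the doubtful library was left aside. The median deviation of the 49 members from their mean over the 7 libraries was -0.06, -0.02 and -0.01 log2 units in controls 1 to 3. It was 0.04, 0.08 and 0.01 in Tfr1-null 2 to 4 and -0.04 in the library labelled Tfr1-null 3 weeks 1, which thus lay among the controls. At 10 weeks all 7 libraries lay between -0.03 and 0.01, with overlapping groups.

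**Figure D1:**
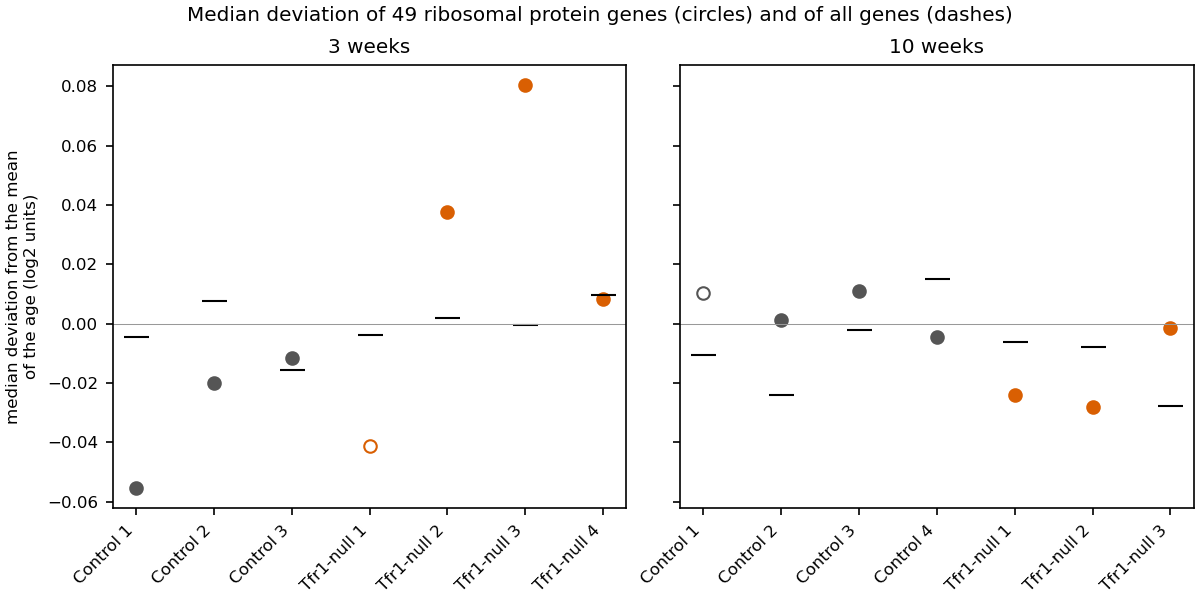
Median deviation of the 49 ribosomal protein genes (circles) and of all genes (dashes) from the mean of the libraries of that age, in log2 units, by library (grey, control; orange, Tfr1-null; open, the 2 libraries whose Tfrc signal went against the label). At 3 weeks the filled orange circles lie at 0.01 to 0.08 and the grey ones at -0.06 to -0.01, while at 10 weeks the groups overlap.

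Rpl22, the protein that carries the tag, read 11.55, 11.69 and 11.68 in the 3-week controls and 11.61, 11.81, 11.96 and 11.90 in Tfr1-null 1 to 4. Tfr1-null 2 to 4 lay above all controls and the library labelled Tfr1-null 3 weeks 1 among them. The difference was 0.25 (SE 0.09, limma adjusted p = 0.325) with 12 libraries and 0.18 (SE 0.10, adjusted p = 1.0) with 14. The other 2 probe sets of Rpl22 differed by 0.19 and 0.34 with 12 libraries, so all 3 pointed the same way. The labels do not say which of these probe sets would read the tagged transcript.

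Its paralog Rpl22l1, which can take the place of Rpl22 in the ribosome, read 11.56, 11.78 and 11.74 in controls and 11.59, 11.88, 11.94 and 11.79 in Tfr1-null at 3 weeks. The groups overlapped as labelled, and the difference with 12 libraries was 0.18 (SE 0.12, limma adjusted p = 0.745). Rpl7l1, a relative of Rpl7 that acts in the assembly of the large subunit, had the highest difference of the members. It read 9.07, 9.21 and 9.02 in controls and 9.24, 9.67, 9.64 and 9.50 in Tfr1-null, with no overlap even as labelled. Its difference was 0.51 (SE 0.19, adjusted p = 0.328) with 12 libraries and 0.42 (SE 0.18, adjusted p = 1.0) with 14. Rpl27a, a core protein of the large subunit, read 12.65, 12.64 and 12.66 in controls and 12.66, 12.80, 12.95 and 12.81 in Tfr1-null, a difference of 0.21 (SE 0.08, adjusted p = 0.344) with 12 libraries.

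The stalk proteins recruit the elongation factors to the ribosome. Rplp2 read 13.26, 13.29 and 13.37 in the 3-week controls and 13.36, 13.46, 13.57 and 13.48 in Tfr1-null, a difference of 0.20 (SE 0.09, limma adjusted p = 0.504) with 12 libraries. Rplp0, which anchors the stalk, differed by 0.06 (SE 0.11, adjusted p = 0.962), with overlapping groups.

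In the small subunit, Rps18 of its head read 12.30, 12.36 and 12.38 in the 3-week controls and 12.39, 12.57, 12.55 and 12.51 in Tfr1-null. The groups did not overlap, and the difference was 0.20 (SE 0.09, limma adjusted p = 0.469) with 12 libraries. Rpsa, also known as the laminin receptor, differed by 0.03 (SE 0.08, adjusted p = 0.986). Rps4x, encoded on the X chromosome, differed by 0.08 (SE 0.07, adjusted p = 0.865). Y-linked Eif2s3y was above background in control 3 weeks 2 alone at 3 weeks, and in all 7 libraries at 10 weeks.

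On the lower side at 3 weeks stood Rps4l and Rpl3l, paralogs of core proteins. Rps4l, a relative of Rps4x, read 9.04, 9.25 and 9.10 in controls and 9.61, 8.14, 8.45 and 8.49 in Tfr1-null 1 to 4. Tfr1-null 2 to 4 lay below every control, and the library labelled Tfr1-null 3 weeks 1 was the highest of the age. The difference was -0.77 (SE 0.19, limma adjusted p = 0.0775) with 12 libraries and -0.46 (SE 0.29, adjusted p = 1.0) with 14. Rpl3l, which replaces Rpl3 in heart and skeletal muscle, read 5.33, 6.10 and 5.03 in controls and 5.39, 4.89, 4.85 and 4.90 in Tfr1-null, a difference of -0.61 (SE 0.24, adjusted p = 0.374) with 12 libraries. Rps4l passed at 3 weeks when Tfr1-null 10 weeks 2 or control 10 weeks 3, which enter only the shared spread, was left out of the 12 (1 member called in each case).

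**Figure D2:**
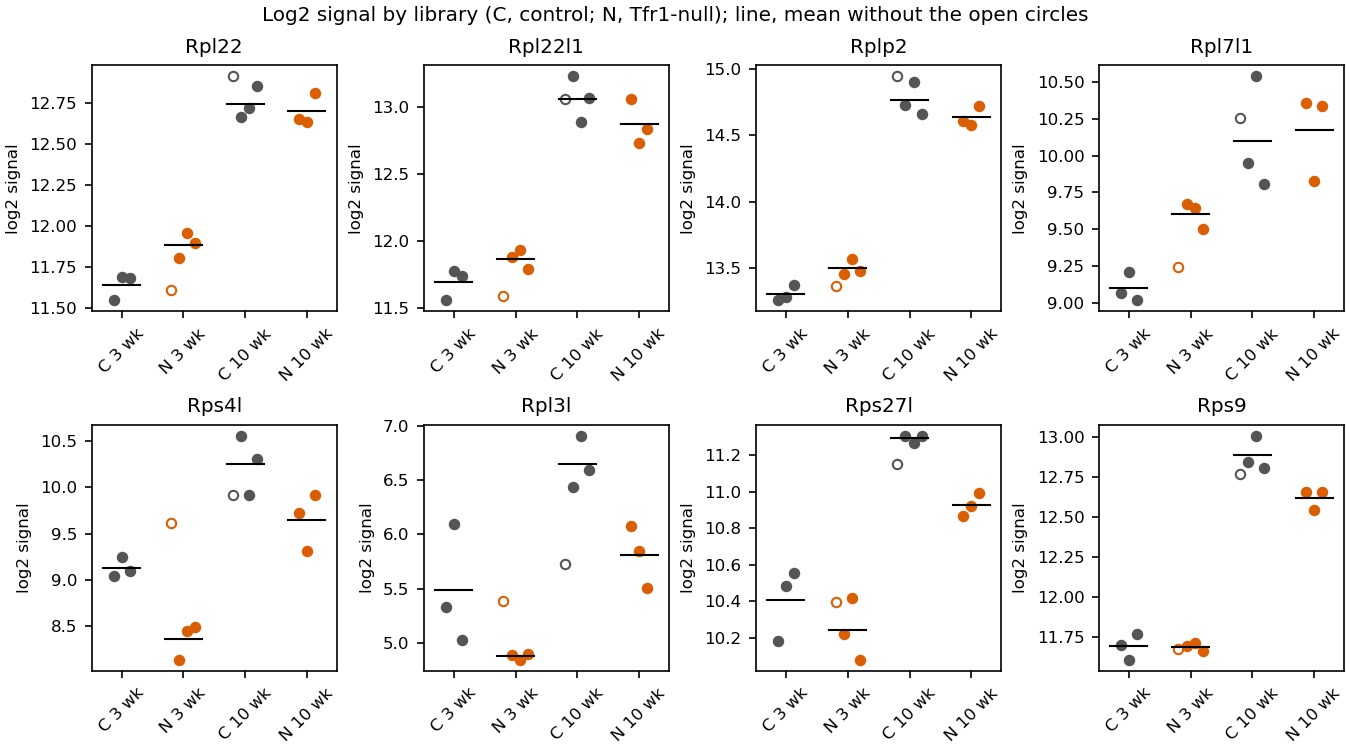
Log2 signal of 8 ribosomal protein genes in each library (grey, control; orange, Tfr1-null; open, the 2 libraries whose Tfrc signal went against the label; line, mean of the filled circles), with a vertical axis of its own for each gene. At 3 weeks Rps4l of filled Tfr1-null libraries lies at 8.14 to 8.49, under controls at 9.04 to 9.25, and at 10 weeks Rps27l lies at 10.87 to 11.00 in Tfr1-null, under all controls at 11.15 to 11.31.

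Late in neurodegeneration, at 10 weeks, the same question was put to a background in which many other genes differed. Again no ribosomal protein gene passed. Limma called 0 of 49 with 12 libraries, where it called 11.1% of all genes, and 0 with 14, where it called 1.21%. At an unadjusted p under 0.05, with 12 libraries, there were 0 members higher and 5 lower (Rpl3l, Rpl12, Rps4l, Rps27l and Rps9), beside 11.8% of all genes higher and 14.6% lower. With 14 libraries it was 0 higher, beside 9.05% of all genes, and 3 lower (Rps27l, Rps9 and Rpl14), beside 10.8%. The median difference of the members was -0.02 with 12 libraries and -0.03 with 14, beside -0.01 and -0.02 over all genes. With 12 libraries 24 of 49 members lay above 0, beside 47.8% of all genes, and with 14 libraries 22, beside 47.3%.

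Few members separated the genotypes at 10 weeks. With 12 libraries Rps4x alone lay above every control, beside 9.87% of all genes, and 4 members (Rpl12, Rpl3l, Rps27l and Rps9) lay below, beside 12.7%. With 14 libraries 0 lay above, beside 4.48%, and 2 (Rps27l and Rps9) below, beside 5.58%.

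Rps27l, a relative of Rps27 that p53 can induce, read 10.87, 10.92 and 11.00 in Tfr1-null and 11.15, 11.31, 11.27 and 11.31 in controls 1 to 4 at 10 weeks. All Tfr1-null libraries lay below all controls, the doubtful one included. The difference was -0.36 (SE 0.12, limma adjusted p = 0.0742) with 12 libraries and -0.33 (SE 0.11, adjusted p = 0.136) with 14. Its other 2 probe sets differed by -0.38 and -0.36 with 12 libraries. At 3 weeks the groups overlapped, with 10.18, 10.49 and 10.55 in controls and 10.40, 10.22, 10.42 and 10.08 in Tfr1-null (-0.17, SE 0.12, adjusted p = 0.769).

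Rps9, which binds ribosomal RNA early in the assembly of the small subunit, read 12.65, 12.54 and 12.66 in Tfr1-null and 12.77, 12.85, 13.01 and 12.80 in controls at 10 weeks, again with no overlap. The difference was -0.27 (SE 0.09, limma adjusted p = 0.0773) with 12 libraries and -0.24 (SE 0.08, adjusted p = 0.138) with 14, and at 3 weeks it was -0.0027 with 12 libraries. Another probe set of Rps9 gave values far apart, which are given with the further observations.

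Rpl3l read 6.08, 5.84 and 5.50 in Tfr1-null and 5.72, 6.44, 6.91 and 6.60 in controls at 10 weeks. The library labelled control 10 weeks 1 lay among the Tfr1-null libraries, and the others did not overlap. The difference was -0.84 (SE 0.24, limma adjusted p = 0.0508) with 12 libraries and -0.61 (SE 0.29, adjusted p = 0.262) with 14. Rps4l read 9.73, 9.32 and 9.91 in Tfr1-null and 9.92, 10.56, 9.91 and 10.30 in controls, which met at 9.91, and differed by -0.61 (SE 0.19, adjusted p = 0.0644) with 12 libraries and -0.52 (SE 0.29, adjusted p = 0.345) with 14. These 2 genes and the dim probe set of Rpl12 thus differed in the same direction at both ages, although none passed at either. Rpl3l also gave low signals, near the 25th percentile of the array though never under it. It read 5.50 in Tfr1-null 10 weeks 3, where that percentile was 5.48, and 4.85 in Tfr1-null 3 weeks 3, where it was 4.37.

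Rpl12, a protein at the base of the stalk, was read by a dim probe set, at 7.10, 6.44 and 6.76 in Tfr1-null and 6.65, 7.89, 7.32 and 7.32 in controls at 10 weeks (-0.74, SE 0.22, limma adjusted p = 0.0579, 12 libraries). With 14 libraries the groups overlapped and the difference was -0.52 (SE 0.28, adjusted p = 0.316). At 3 weeks Tfr1-null 2 to 4 all lay below the background limit, the 25th percentile of their arrays. A brighter probe set, shared by Rpl12 with other genes, did not show this fall. It read 12.18, 12.33 and 12.26 in controls and 12.30, 12.40 and 12.36 in Tfr1-null 2 to 4 at 3 weeks. At 10 weeks it read 13.27, 13.34 and 13.36 in Tfr1-null and 13.43, 13.34 and 13.34 in controls 2 to 4. A further shared probe set of Rpl12 overlapped between genotypes at both ages. Rpl14, of the large subunit, had a wide spread at 10 weeks, with 9.28, 8.70 and 8.82 in Tfr1-null and 9.75, 8.81, 9.60 and 10.05 in controls. It overlapped between genotypes (-0.55, SE 0.28, limma adjusted p = 0.238, and with 14 libraries -0.62, SE 0.26, adjusted p = 0.211). Brighter probe sets, shared by Rpl14 and Rpl14-ps1, lay closer together. For example, 13.9, 13.85 and 13.94 in Tfr1-null overlapped with 13.82, 14.1 and 14.01 in controls 2 to 4. In another, 13.28, 13.11 and 13.38 in Tfr1-null lay below 13.5, 13.41 and 13.41 in controls 2 to 4. On the higher side stood Rps14, Rps18 and Rps26 of the small subunit, by 0.19, 0.15 and 0.18, with adjusted p of 0.255, 0.316 and 0.330. Leaving out a library from the 12 gave 2 calls (Rpl10a and Rpl12) without Tfr1-null 10 weeks 1, and 1 call without control 3 weeks 1 (Rpl12), control 3 weeks 2 or 3 (Rpl3l), control 10 weeks 2 (Rpl14) or control 10 weeks 3 (Rps4l), so the members called varied with the library.

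Among members of other roles, Rpl22 read 12.65, 12.64 and 12.81 in Tfr1-null and 12.91, 12.66, 12.72 and 12.86 in controls at 10 weeks. These groups overlapped, and the difference was -0.04 (SE 0.09, limma adjusted p = 0.815) with 12 libraries. Its other 2 probe sets differed by -0.01 and 0.34, so they did not share a direction at this age. Rpl22l1 differed by -0.19 (SE 0.12, adjusted p = 0.365), Rpl7l1 by 0.07 (SE 0.19, adjusted p = 0.853) and Rpl39l, a relative of Rpl39 known from testis, by -0.14 (SE 0.23, adjusted p = 0.756). Rplp0 differed by -0.07, Rplp2 by -0.13 and Rpsa by 0.07. Rps4x read 13.04, 13.03 and 13.04 in Tfr1-null and 12.91, 12.92 and 12.92 in controls 2 to 4, a difference of 0.12 (SE 0.07, adjusted p = 0.336), but 13.07 in the library labelled control 10 weeks 1.

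**Figure D3:**
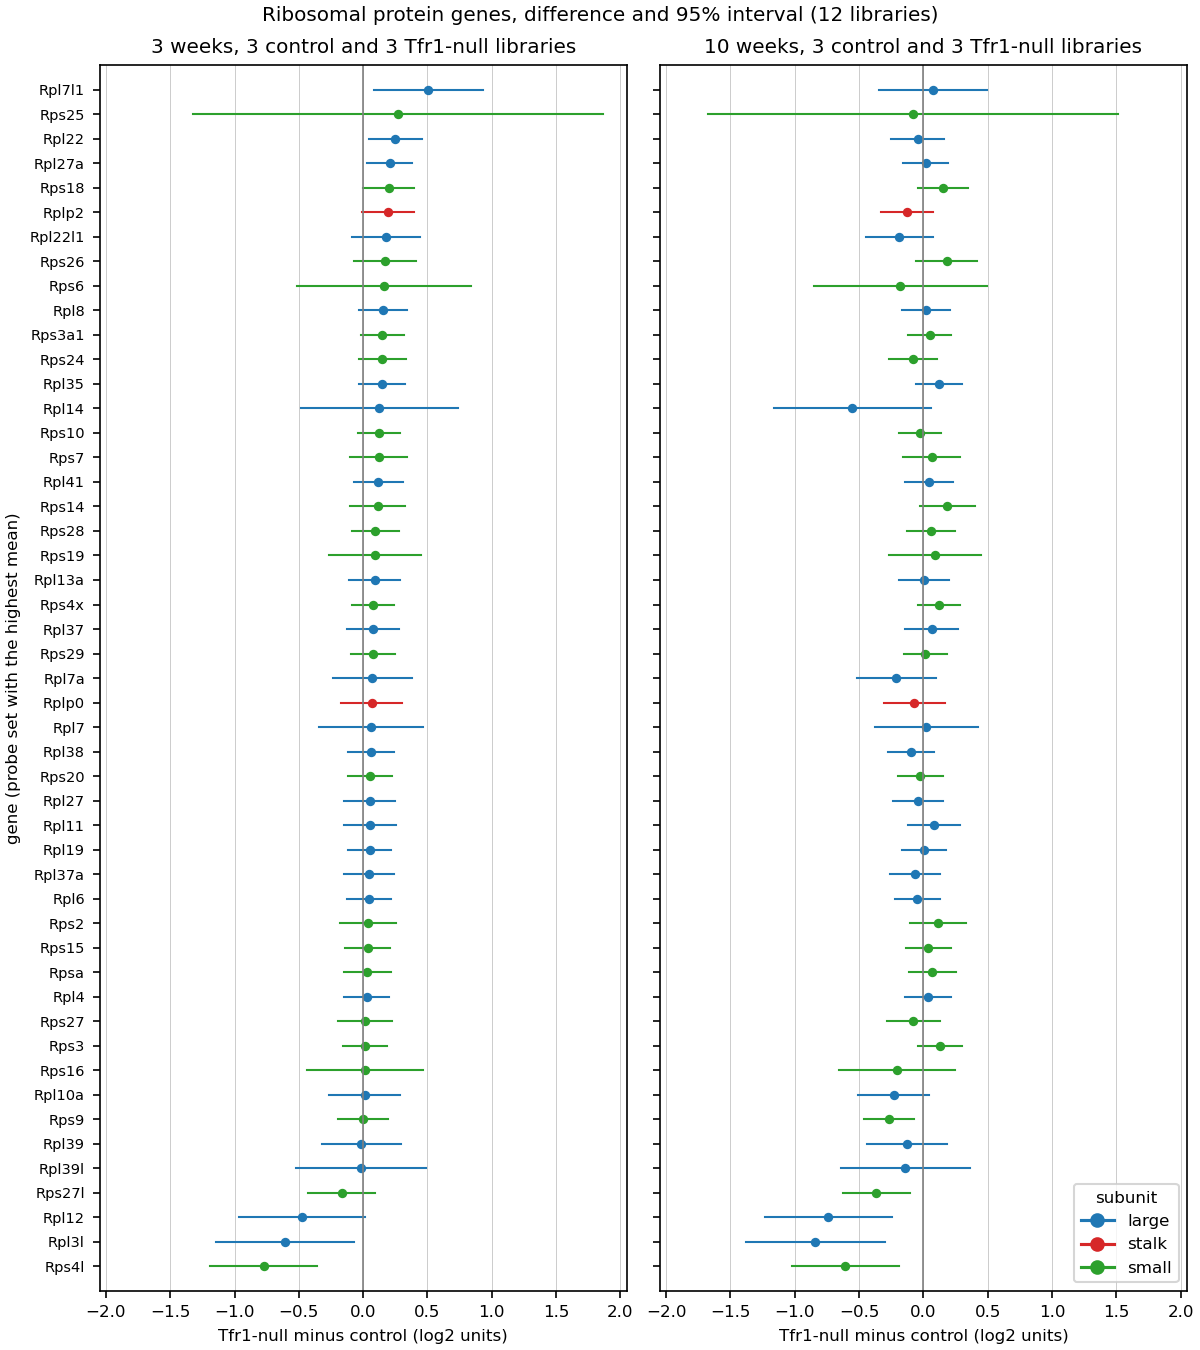
Difference in log2 signal, Tfr1-null minus control, of the 49 ribosomal protein genes with its 95% interval from limma, at 3 weeks and at 10 weeks in the 12 libraries, ordered by the 3-week difference and coloured by subunit. Nearly all points at 3 weeks lie slightly above 0 (42 of 49), with Rps4l, Rpl3l and Rpl12 apart at the bottom. Those 3, of which Rpl12 was read by a dim probe set and Rpl3l gave low signals, are also low at 10 weeks.

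Since a missed threshold does not show that a gene kept its level, the intervals say more. With 12 libraries the 95% interval of the difference lay within 0.5 log2 units of 0, or 1.41-fold, in 41 of 49 members at 3 weeks and in 38 at 10 weeks, beside 53.9% and 43.1% of all genes. With 14 libraries it did so in 40 members at each age, beside 58.9% and 47.4%. At 10 weeks the 11 members outside that bound in the 12 libraries were Rpl10a, Rpl12, Rpl14, Rpl39l, Rpl3l, Rpl7a, Rps16, Rps25, Rps27l, Rps4l and Rps6. The median standard error was 0.0922 for members and 0.150 over all genes. These intervals concern probe signals, and whether the signals of the 29 bright members follow a difference in full was not tested.

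By subunit, the large subunit had a median difference of 0.06 at 3 weeks and -0.04 at 10 weeks with 12 libraries, and the small subunit 0.08 and 0.04. The 8 members that start exactly with the pyrimidine tract shown above had a median of 0.13 at 3 weeks, with all 8 above 0, and -0.09 at 10 weeks, with 2 above 0. Among these 8, Rpl14, Rps27 and Rps6 were read by probe sets dimmer than shared ones of the same gene. The 12 members whose tract began up to 5 bases away had medians of 0.06 and -0.11, with 8 and 5 above 0. The 23 members with a window and no such tract had medians of 0.05 and 0.04, with 21 and 13 above 0. These are descriptions of few genes, and no test was made between them.

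The genotype difference was also compared between the ages within the fit. Limma called 0 of 49 members for the 10-week difference minus the 3-week difference, with 0.286% of all genes called with 12 libraries and 0% with 14. At an unadjusted p under 0.05 there were 0 members higher and 2 lower (Rplp2 and Rpl22) with 12 libraries, beside 5.34% of all genes higher and 6.86% lower. With 14 libraries it was 0 higher, beside 3.22%, and 1 lower (Rplp2), beside 4.25%. For Rplp2 the differences moved by -0.32 (SE 0.13, adjusted p = 0.345), for Rpl22 by -0.29 (SE 0.13, adjusted p = 0.407) and for Rpl22l1 by -0.36 (SE 0.17, adjusted p = 0.427). Across the 49 members the 3-week and 10-week differences in the 12 libraries correlated at r = 0.729 and rho = 0.373, and across the 29 bright members at r = 0.145. Over all genes it was r = 0.507 and rho = 0.314, so the rank correlation of members lay near that of all genes. The points of an age share their arrays. Of the 29 bright members 19 lay above 0 at 10 weeks.

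The proteins of the mitochondrial ribosome, which serves the few mRNAs encoded in mitochondria, were measured by 76 genes and differed from the cytosolic set in their counts at 10 weeks. With 12 libraries 19 of 76 fell and 1 rose, beside 6.34% of all genes that fell and 4.73% that rose, and the median difference was -0.31. Mrps12 fell by 1.07 log2 units (SE 0.10, limma adjusted p = 0.000168), Mrpl36 fell by 1.11 (SE 0.14, adjusted p = 0.000807), Mrpl20 fell by 0.85 (SE 0.11, adjusted p = 0.00112) and Mrpl16 fell by 0.57 (SE 0.09, adjusted p = 0.00426). With 14 libraries 3 fell and 0 rose, Mrps12 among them (-0.94, adjusted p = 0.0346), where limma called 1.21% of all genes. At 3 weeks limma called 0 of 76 in both fits, with 3 at an unadjusted p under 0.05 with 12 libraries. Over all genes 5.27% were higher and 5.36% lower at that unadjusted limit. Of 40 proteasome subunits, another large complex, 6 fell and 0 rose at 10 weeks with 12 libraries, and with 14 limma called 0, with 9 at an unadjusted p under 0.05. Of those 9, 2 were higher, beside 9.05% of all genes, and 7 lower, beside 10.8%.

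**Figure D4:**
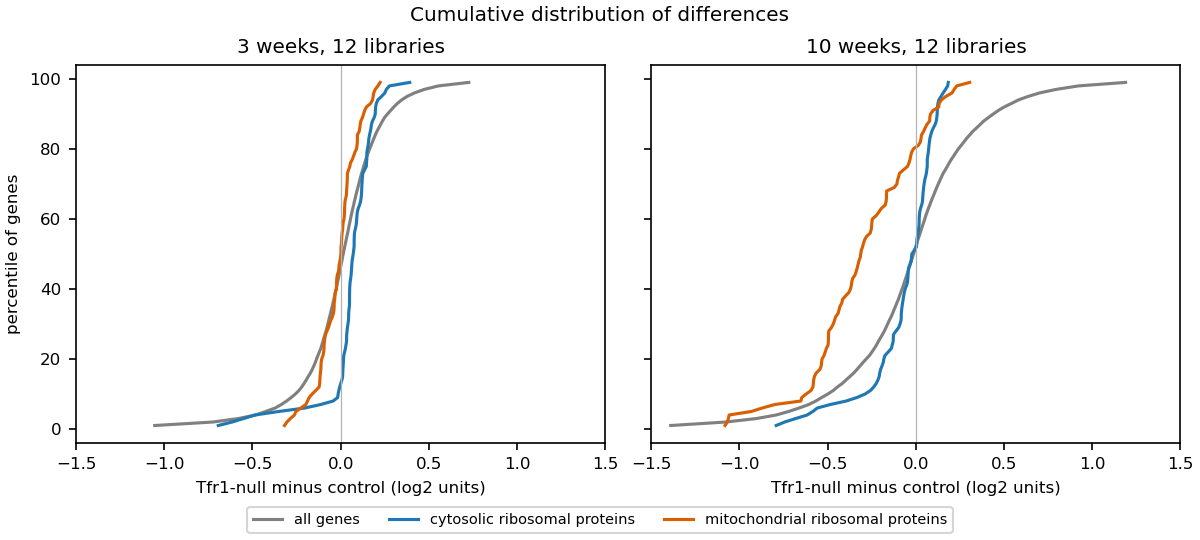
Cumulative share of genes (percentile) by the difference in log2 signal, Tfr1-null minus control, in the 12 libraries, for all genes (grey), the 49 cytosolic ribosomal proteins (blue) and the 76 mitochondrial ribosomal proteins (orange). At 3 weeks the blue curve is steep and sits slightly right of 0 (median 0.07), and at 10 weeks it centres near 0 (median -0.02) while the orange curve lies to the left (median -0.31).

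Other genes of the translation pathway were read from lists, and their calls rested on the 12 libraries, where limma called 4.73% of all genes higher and 6.34% lower at 10 weeks. Fau, which encodes a small-subunit protein fused to a ubiquitin-like protein, differed by 0.01 at 3 weeks and -0.03 at 10 weeks. Of 14 elongation factors and further mRNAs known for TOP tracts, 1 rose at 10 weeks and 0 fell: Pabpc1, the poly(A)-binding protein, by 0.57 (SE 0.12, limma adjusted p = 0.0124). Eef1a1, which carries aminoacyl-tRNA to the ribosome, differed by -0.21 at 3 weeks (SE 0.08, adjusted p = 0.350) and -0.02 at 10 weeks. Of 21 initiation factors 4 rose and 2 fell at 10 weeks, among them Eif2s2 (0.47, adjusted p = 0.00717), Eif3c (0.54, adjusted p = 0.0175), Eif3d (0.61, adjusted p = 0.0295) and Eif2b4 (-0.62, adjusted p = 0.00529).

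Of 27 ribosome biogenesis genes 3 rose and 3 fell at 10 weeks with 12 libraries, beside the same 4.73% and 6.34% of all genes. Nop14 rose by 0.76 (limma adjusted p = 0.00413) and Sbds, which readies the large subunit for joining, by 0.54 (adjusted p = 0.0417). Bysl, needed to build the small subunit, fell by 1.01 (adjusted p = 0.00097), and Dkc1, which modifies ribosomal RNA, fell by 0.53 (adjusted p = 0.0383). At 3 weeks 0 of these 27 genes, 0 of the 21 initiation factors and 0 of the 14 TOP and elongation genes were called, with 1, 2 and 1 at an unadjusted p under 0.05. That unadjusted limit was passed by 5.27% of all genes higher and 5.36% lower.

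The mTORC1 and S6 kinase axis, which sets the translation of TOP mRNAs, had 4 of 16 genes higher, beside 4.73% of all genes, and 0 lower, beside 6.34%, at 10 weeks with 12 libraries. Those were Sesn2 (1.75, SE 0.17, limma adjusted p = 0.000186) and Ddit4 (1.08, SE 0.28, adjusted p = 0.0336), which both restrain mTORC1, Eif4ebp1 (0.79, SE 0.21, adjusted p = 0.0377), the inhibitor of cap binding, and Larp4b (0.40, SE 0.11, adjusted p = 0.0358), an RNA-binding protein. At 3 weeks Sesn2 rose by 1.08 (SE 0.17, adjusted p = 0.00658) and was the only gene of the 16 called. Larp1 differed by 0.14 at 3 weeks and -0.09 at 10 weeks. With 14 libraries limma called 0 genes of these 4 lists at either age, with 4 of the TOP and elongation genes, 10 initiation factors, 9 biogenesis genes and 6 of the mTORC1 axis at an unadjusted p under 0.05 at 10 weeks, beside 9.05% of all genes higher and 10.8% lower, and 0, 0, 0 and 1 at 3 weeks, beside 2.1% higher and 2.57% lower. Sesn2 then differed by 0.79 (adjusted p = 1.0) at 3 weeks and 1.33 (adjusted p = 0.108) at 10 weeks.

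All 10 markers of dopaminergic neurons were measured, and none was under the 25th percentile throughout a group. Their summed level, as log2, was 15.91 to 15.96 in controls and 15.74 to 15.82 in Tfr1-null at 3 weeks, and 16.76 to 16.83 and 16.36 to 16.66 at 10 weeks, in the 12 libraries. At 10 weeks with 12 libraries limma called 2 of the 10 lower, Drd2 and Ddc, beside 6.34% of all genes. At 3 weeks it called 0, with 2 lower at an unadjusted p under 0.05, beside 5.36% of all genes. With 14 libraries it called 0 at either age, with a smallest adjusted p of 0.152 at 10 weeks. At an unadjusted p under 0.05, 5 were lower at 10 weeks, beside 10.8% of all genes, and 1 at 3 weeks, beside 2.57%. In bulk RNA of this kind, fewer cells of a type and less RNA per cell cannot be told apart. Of the markers of other cells, 9 of microglia gave 10.97 to 11.14 in controls and 10.77 to 11.42 in Tfr1-null at 3 weeks, and 11.51 to 12.19 and 11.78 to 12.69 at 10 weeks. The 9 of astrocytes gave 13.41 to 13.58 and 13.55 to 13.63 at 3 weeks, and 14.14 to 14.62 and 14.33 to 14.77 at 10 weeks, and the 8 of oligodendrocytes overlapped between genotypes at both ages. The summed level of the 3 glutamatergic markers did not overlap at 10 weeks, with 11.56 to 11.77 in controls and 11.96 to 12.08 in Tfr1-null, in both fits. The markers did not move together, as 1 was higher and 2 were lower, with differences from -1.08 to 0.74 with 12 libraries. The summed level of the 5 ependymal and choroid plexus markers did not overlap with 12 libraries, at 9.24 to 10.07 and 9.02 to 9.22, but did with 14. Of these 5, 4 were lower and 1 higher with 12 libraries, with differences from -0.76 to 0.02. At 3 weeks the sums of both lists overlapped. Of the 12 marker lists, beside Drd2 and Ddc, limma called at 10 weeks with 12 libraries the astrocyte gene Sox9 (1.14) and the GABAergic gene Slc32a1 (0.70), both higher, beside 4.73% of all genes, and at 3 weeks it called 0 genes of any marker list. Neither was called with 14 libraries, where Sox9 differed by 0.93 (adjusted p = 0.129) and Slc32a1 by 0.49 (adjusted p = 0.197). The part of these levels in the differences of the ribosomal protein genes was not tested.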

How the data were processed

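The authors amplified 50 ng of RNA per library (NuGEN Ovation V2, per the labels' protocols) and deposited log2 signals of Affymetrix arrays, made by RMA with Partek 6.5 per the submitters' processing notes. The array medians differ by age, and whether the ages were normalized together is not stated in the labels. GEO's platform annotation gives a single gene symbol to 34958 of 45101 probe sets, several to 932 and none to 9211, and 64 control probe sets were left out. All 49 members matched RefSeq by gene ID. Limma 3.58.1 (lmFit, eBayes) in R 4.3.3 was fitted to all 18193 genes with 4 group means, with Benjamini-Hochberg adjustment over all genes and adjusted p under 0.05 called. A gene whose libraries of a group all lay under the 25th percentile of their arrays counts as not above background. The members and lists, the doubtful libraries and the tests were chosen with earlier results of these data known. Named are members called, or else the 3 per direction with the smallest p, Rpl22, the stalk proteins, Rpsa, Rps4x and the paralogs, and up to 4 called genes of each pathway list. Larp1, the marker genes and further members named in counts were chosen after their values were seen. In simulated data with known changes, the test with 12 libraries recovered 14% of changes of 0.5 log2 units and 68% of changes of 1 at 3 weeks, and 18% and 74% at 10 weeks. The changed genes were drawn at random from all genes, not from the members. Alternatives covered leaving out libraries, array weights, trend, filters, probe set choice, normalization and the replicate number as a block.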

Additional observations from a re-analysis of the deposited data

Results flagged for a closer look

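In each group of 4 libraries (Tfr1-null at 3 weeks and control at 10 weeks), the lowest and the highest library of each member were set against the others by the gap to the nearest library over the range of the group, and 8 of 98 groups held a library beyond Dixon's 95% limit of 0.829. Chance alone marks about 1 group in 20. Of these 8, 2 concern the library labelled Tfr1-null 3 weeks 1, which was the highest of its group for Rpl3l, at 5.39, and for Rps27, at 7.24, where the whole range was 0.01. The library labelled control 10 weeks 1 was the highest of its group for Rps4x, at 13.07. Control 10 weeks 2 was the lowest for Rpl11, at 13.62, and for Rpl37, at 6.1, and the highest for Rpl37a, at 13.76. Control 10 weeks 3 was the highest for Rpl7a, at 14.18 in a range of 0.58, and the lowest for Rps29, at 14.62. Apart from Rpl3l and Rpl7a, the ranges of these groups were 0.26 or less.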

How the results depend on the processing

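With 14 libraries the count of 0 called members held at both ages and for the difference between ages under every alternative run. With 12 libraries at 3 weeks 2 members (Rpl7l1 and Rps4l) were called with that age fitted alone and 2 with array weights, and 0 to 1 when a further library was left out (the report names these libraries). At 10 weeks it was 1 with the replicate number as a block (Rpl12), 2 with an intensity trend and 2 with the mean of all probe sets (Rpl3l and Rps9 in both), 1 without dim genes and 1 with quantile normalization (Rpl3l), 1 with every probe set fitted on its own (Rpl13a, an alternative chosen after seeing the data), and 0 to 2 when a library was left out. The mean for Rps9 takes in its probe set with values in separate ranges, given below, which differed by -3.21 with 12 libraries. The difference between ages kept 0 with 12 libraries. The median difference at 3 weeks was 0.071 without the 2 doubtful libraries, and 0.030 to 0.071 with 14 and 0.043 to 0.081 with 12 libraries when a library was left out. At 10 weeks it was -0.0029 without probe sets of suffix x or s, 0.0067 after quantile normalization and -0.00084 with centred arrays in 14 libraries, and 0.023 and 0.0076 under the latter pair in 12. Leaving out a library gave -0.035 to -0.0054 (the latter without control 10 weeks 3) and -0.029 to -0.0074 (the latter without Tfr1-null 10 weeks 2). The cause of these moves was not tested. No single named gene changed direction past the threshold. Same-numbered libraries did not deviate together (correlations from -0.08 to 0.09), so the numbers were not taken to pair them. In simulation with 12 libraries 14% of changes of 0.5 log2 units were recovered at 3 weeks and 18% at 10 weeks. The changed genes were drawn at random from all genes, whose median standard error was 0.150, beside 0.0922 for members. These shares therefore do not give the recovery for members, which was not simulated. A count of 0 still does not show that a member kept its level.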

Other observations

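A further probe set of Rps9, not its brightest, gave values in separate ranges with nothing between them. At 3 weeks it read 9.48 and 9.41 in controls 1 and 2, 9.40 and 9.34 in Tfr1-null 3 and 4, and 12.76, 12.71 and 12.83 in control 3 and Tfr1-null 1 and 2. At 10 weeks the 3 Tfr1-null libraries gave 10.14, 10.13 and 9.92 and the 4 controls 13.42, 13.31, 13.30 and 13.20. The gap between the ranges was 3.22 log2 units at 3 weeks and 3.05 at 10 weeks, where the median of the largest gap over the 105 member probe sets was 0.11 and 0.16. At 3 weeks each range held libraries of both genotypes, and at 10 weeks the ranges matched the labels, the library labelled control 10 weeks 1 included. The brightest probe set of Rps9 spanned 11.61 to 11.76 at 3 weeks, with no such ranges. Probe sequences and the strain origin of each library at this locus were not used here.

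Probe sets shared with other genes, which were not members, were fitted on their own, an alternative added after seeing the data. With 12 libraries at 3 weeks limma called 0 of 110 shared and 0 of 105 single-symbol probe sets, beside 1.09% of all 35877. At an unadjusted p under 0.05 it was 4 and 6, beside 3295 of all 35877. With 12 libraries at 10 weeks limma called 2 of 110 shared and 1 of 105 single-symbol probe sets, beside 9.36% of all. A probe set named for Rpl5 and its pseudogene Rpl5-ps2 rose by 0.80 (adjusted p = 0.00896), and with 14 libraries it differed by 0.62 (adjusted p = 0.148). Its values were 11.25, 11.25 and 11.18 in Tfr1-null, 10.28, 10.80 and 10.21 in controls 2 to 4, and 11.15 in the library labelled control 10 weeks 1. At 3 weeks it read 10.59, 10.72 and 10.41 in Tfr1-null 2 to 4, 10.15, 10.03 and 10.07 in controls, and 10.01 in the library labelled Tfr1-null 3 weeks 1. A second probe set for the same pair of genes, Rpl5 and Rpl5-ps2, read 12.88 to 12.91 in the 3-week controls, 13.00 to 13.04 in Tfr1-null 2 to 4 and 12.86 in the library labelled Tfr1-null 3 weeks 1, and differed by 0.22 at 10 weeks (adjusted p = 0.128, 12 libraries). The dimmest of the 3 probe sets of Rpl5 and Rpl5-ps2 read 9.39 to 9.53 in the 3-week controls, 9.72 to 9.94 in Tfr1-null 2 to 4 and 9.38 in the library labelled Tfr1-null 3 weeks 1. At 10 weeks it read 10.17 to 10.52 in Tfr1-null, 9.49 to 10.14 in controls 2 to 4 and 10.09 in the library labelled control 10 weeks 1 (0.57, adjusted p = 0.05001, 12 libraries). The signals of Rpl5 and of its pseudogene cannot be told apart here. A probe set of Dnaaf2, Rpl36al and Rpl36a fell by 0.53 (adjusted p = 0.0126), and a dimmer probe set of Rpl13a fell by 0.52 (adjusted p = 0.0287), while the brightest probe set of Rpl13a differed by 0.01 at 10 weeks. All 3 dimmer single-symbol probe sets of Rpl13a were lower, at -0.52 to -0.25 with 12 libraries and -0.47 to -0.24 with 14. The brightest differed by -0.03 with 14 libraries, and a bright probe set shared by Rpl13a and Gm11478 overlapped between genotypes at 10 weeks.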
